A study of Arabidopsis thaliana with 16 samples.

Results

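The NAC family of *A. thaliana* was represented here by 2 probe sets of the ATH1 array out of 22746 tested. The first is the one that the study lists as a NAM-like protein, and the second is assigned to NAC014 (ANAC014, locus AT1G33060) by the probe annotation. Members were all probe sets matched to 1 gene with a NAC or ANAC number as its symbol, together with the NAM-like protein. The annotation lists 13513 of the tested probe sets with 1 gene, and of the 81 genes that carry such a symbol in the RefSeq table of TAIR10.1 only 1 had a probe set in it. The other NAC genes were not analysed here, so the values describe 2 probe sets and not the family. No locus is given for the NAM-like protein in the sources used here.

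NAC proteins are transcription factors of plants named after NAM of petunia and ATAF and CUC of *Arabidopsis*. A conserved domain at the N-terminus binds DNA and forms dimers, and the variable C-terminal part activates or represses transcription. In *Arabidopsis*, members of the family are known from organ boundaries, the secondary wall of vessels, senescence, drought and abscisic acid, wounding and jasmonate. The role of NAC014 in leaves is not given in the sources used here.

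All plants were Col-0, 4 weeks old, and each of the 16 samples held tissue of at least 8 plants on 1 array. The tissue label is leaves for every sample, while the titles say seedlings and the protocol says that plants were frozen. Receivers that spent 24 h (2 samples) or 48 h (3 samples) in the volatiles of Lima beans (*Phaseolus lunatus*) damaged by leafminers were set against receivers that spent 24 h (2 samples) or 48 h (3 samples) in those of healthy Lima beans. Plants damaged directly by leafminer larvae (3 samples, "fed") were set against healthy plants (3 samples). The fed leaves were taken once the larvae had reached the second instar, a time counted from egg laying, so feeding and volatile exposure were not matched in duration. The controls of the volatile experiment thus also received plant volatiles, the fed samples were leaves picked for their damage, and no control is shared between both experiments. The methods call the replicates independent without saying whether their plants were grown or exposed separately, and p-values cover just the scatter among these arrays.

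Values are MAS5 signals on a linear scale, with array medians between 19.2 and 30.3, and fold changes are differences of mean log2 signals without further scaling. Probe sets were called changed when limma's adjusted p, after Benjamini and Hochberg over all 22746 probe sets, was at most 0.05 and the change at least 2-fold. SE stands for limma's moderated standard error of that difference. The number of arrays limits the precision. Leaf markers were high in all groups. RCA, the activase of Rubisco, had signals of at least 2301 and LHCB4.1, of the light-harvesting complex, of at least 2620 on every array, and neither passed the test with feeding (log2 fold changes of -0.06 with adjusted p = 0.85 and 0.21 with adjusted p = 0.31). These were the 2 of 8 mesophyll markers with a probe set in the annotation. Fewer cells of a type and less RNA per cell cannot be told apart in such samples.

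The NAM-like protein is shown by the primers with which the study measured it by qPCR, since the study lists them under this probe set and no locus is given for it. Each primer is 22 bases long and is written 5′ to 3′, with no part in capitals.
Sense primer of the NAM-like protein: cacggtcttgcggatacttcta
Antisense primer of the NAM-like protein: cgagtcaacaccataacccttt

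The transcript of the NAM-like protein was strongly higher in leafminer-fed leaves. Its signal was 1521, 1668 and 1849 on the fed arrays, against 15.6, 9.40 and 11.5 on the healthy arrays. Every fed array lay above every healthy array, and 27.1% of all probe sets were separated in this direction by a gap of any size. The mean log2 signal was 10.71 ± 0.14 (SD, n = 3) in fed leaves and 3.58 ± 0.37 (SD, n = 3) in healthy leaves. The log2 fold change was 7.13 (SE 0.44, limma adjusted p = 4.3e-07), and the change ranked 7 of 22746 from the highest. The healthy signals were only 0.571, 0.419 and 0.521 times the median of their arrays and are not shown to be above background, so the size of the change is uncertain, and it was 5.91 when 16 was added to all signals before taking log2. With feeding 1 of the 2 NAC probe sets was called, the NAM-like protein, while 19.2% of all probe sets were called in either direction and 12.8% were called up. The split of all calls was 2902 up and 1476 down (2227 and 2378 after quantile normalization). The study took this gene for qPCR as one of those most strongly raised by feeding on these same arrays, so its rise is no independent evidence.

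**Figure D1:**
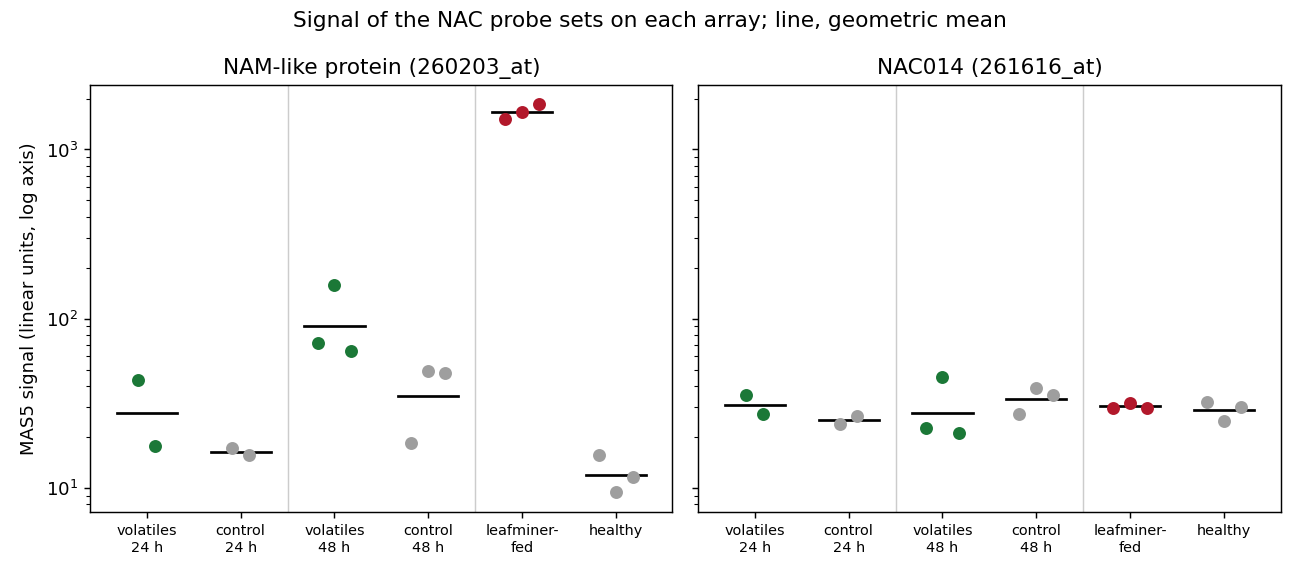
MAS5 signal (linear units on a log axis) of the NAM-like protein (left panel) and NAC014 (right panel) on each of the 16 arrays. Points are arrays and lines are geometric means of the 6 groups; the fed arrays of the NAM-like protein lie between 1521 and 1849, above all others, whereas the groups of NAC014 lie between 21.0 and 44.9. Levels are to be read within a panel, since probe sets differ in how brightly they hybridize.

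After 48 h of volatiles the NAM-like protein had higher signals without passing the test. They were 71.8, 158.2 and 64.6 on the volatile arrays, against 18.5, 49.0 and 47.7 on the control arrays. The groups did not overlap, and the second volatile array was the highest and the first control array the lowest. In 8.82% of all probe sets the volatile arrays lay above the control arrays in this way. The mean log2 signal was 6.49 ± 0.71 (SD, n = 3) after volatiles and 5.13 ± 0.80 (SD, n = 3) in the controls, a log2 fold change of 1.36 (SE 0.44, limma adjusted p = 0.19, unadjusted p = 0.0093). Limma called 0 of the 2 NAC probe sets at 48 h. SAM, the test named in the study's methods, also called 0 in a version coded here, which is not the study's software package. An unadjusted limma p under 0.05 was found for 1 of the 2, and for 3003 of all 22746 probe sets. Of all probe sets 0.765% were called. Single arrays moved this value. The log2 fold change was 0.90 without the first control array and 0.96 without the second volatile array, and it lay between 1.53 and 1.60 without any other array of that time. The second volatile array also had the highest median signal of all 16 arrays, 30.3. Relative to the median of its array the NAM-like protein stood at 2.92, 5.22 and 3.21 on the volatile arrays and at 0.822, 2.25 and 1.93 on the control arrays, so the groups remained apart. The control signals are not shown to be above background, so the size of the change is uncertain. The study's list of defence genes raised at 48 h holds this probe set, which makes its direction here no independent evidence either.

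At 24 h the volatile arrays of the NAM-like protein disagreed with each other. The signal was 43.5 and 17.6 after volatiles, against 17.2 and 15.6 in the controls. Only the first volatile array stood clearly above the controls. The log2 fold change was 0.76 (SE 0.54, limma adjusted p = 0.54), and it was 0.11 without the first volatile array and 1.41 without the second. The groups did not overlap, but neither did those of 47.1% of all probe sets in this direction, and over all probe sets the median change was 0.31 on the log2 scale. Divided by the median of its array, the signal was 1.63 and 0.765 on the volatile arrays and 0.828 and 0.811 on the control arrays, and the groups then overlapped. These signals are not shown to be above background, so the size of the change is uncertain. Limma called 0 of the 2 NAC probe sets at 24 h, SAM also called 0, and 0 had an unadjusted p under 0.05. Of all 22746 probe sets 2866 had one. Among all probe sets 0.0176% were called.

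The volatile response of the NAM-like protein was not shown to differ between the times. The log2 fold change at 48 h exceeded that at 24 h by 0.60 (SE 0.70, limma adjusted p = 0.82), with a 95% confidence interval from -0.92 to 2.12. Limma called 0 of the 2 NAC probe sets in this comparison, where 0.022% of all probe sets were called. An unadjusted limma p under 0.05 was found for 0 of the 2 and for 1744 of all 22746. The controls themselves had higher signals at the later time without passing the test. Their signals were 18.5, 49.0 and 47.7 at 48 h, against 17.2 and 15.6 at 24 h, a log2 fold change of 1.10 (SE 0.49, limma adjusted p = 0.72). Control signals this low are not shown to be above background, so the size of that change is uncertain too. The control groups did not overlap, which held in this direction for 17.8% of all probe sets. Limma called 0 of the 2 NAC probe sets between the controls, and 0.0132% of all probe sets. At an unadjusted limma p under 0.05 were 1 of the 2 and 1573 of all 22746.

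The NAM-like protein responded more to feeding than to 48 h of volatiles. The log2 fold change with feeding exceeded that of the 48 h volatile treatment by 5.77 (SE 0.62, limma adjusted p = 9.4e-05), and each response was taken against its own controls. The durations were not matched. This difference holds the feeding contrast for which the gene was picked, so it is not independent of that choice. In this comparison 1 of the 2 NAC probe sets was called, beside 14% of all probe sets in either direction and 8.8% upwards, that is 2002 with a larger and 1192 with a smaller value with feeding (1887 and 1914 after quantile normalization). The order of the 6 groups by mean log2 signal was fed (10.71), volatiles 48 h (6.49), control 48 h (5.13), volatiles 24 h (4.79), control 24 h (4.03) and healthy (3.58). The arrays of control 48 h and volatiles 24 h overlapped, as did those of control 24 h and healthy. Volatile arrays lay above their controls at 48 h and 24 h, as in 8.82% and 47.1% of all probe sets. The lowest fed array was at 1521 and the highest volatile array of 48 h at 158.2, and the share of all probe sets so separated was not counted. Since feeding and volatiles were run as separate experiments, the levels of their groups were not tested against each other.

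**Figure D2:**
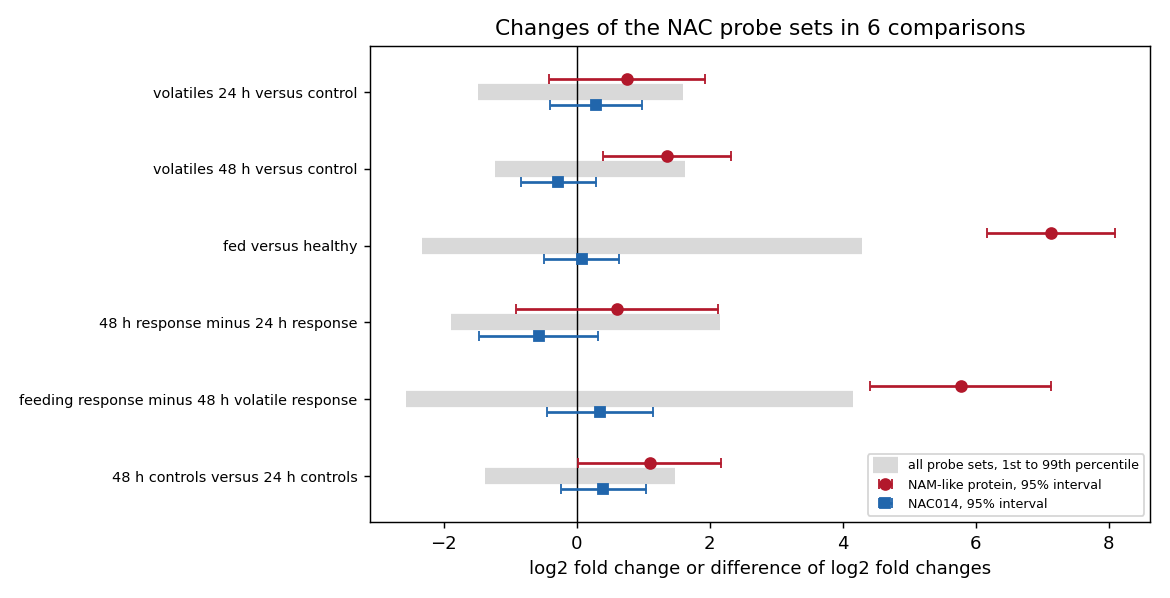
Log2 fold changes, or differences of log2 fold changes, of the NAM-like protein (red circles) and NAC014 (blue squares) in the 6 comparisons, with 95% confidence intervals of the limma fit. Grey bars span the middle of all 22746 probe sets, leaving out 1% at each end; the NAM-like protein lies beyond its bar with feeding (7.13) and in the difference between feeding and 48 h of volatiles (5.77), and NAC014 lies within its bar in each comparison.

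NAC014 was called in 0 of the 6 comparisons, and 0 had an unadjusted p under 0.05. Its signals lay between 0.914 and 1.78 times the median of their arrays. They are not shown to be above background, so a lack of response of the gene cannot be read from them. Its signal was 29.7, 31.9 and 29.8 on the fed arrays, against 32.3, 24.7 and 30.1 on the healthy arrays. The groups overlapped, with a log2 fold change of 0.08 (SE 0.26, limma adjusted p = 0.88) and a 95% confidence interval from -0.49 to 0.64. After 48 h it was 22.5, 44.9 and 21.0 with volatiles, against 27.4, 38.8 and 35.2 in the controls. Here 2 volatile arrays lay below all controls and the second one above them, and the log2 fold change was -0.27 (SE 0.26, limma adjusted p = 0.74, interval from -0.84 to 0.29). At 24 h the signals were 35.3 and 27.3 with volatiles, against 23.9 and 26.7 in the controls, a log2 fold change of 0.30 (SE 0.32, limma adjusted p = 0.67, interval from -0.40 to 0.99) that was below the median shift of all probe sets (0.31). The volatile arrays lay above the controls there, as for 47.1% of all probe sets. The array with the highest signal of NAC014, the second volatile array of 48 h, was also the volatile array with the highest signal of the NAM-like protein. The sign of its changes at 24 h and with feeding turned after both scalings of the arrays, to -0.031 and -0.15 after quantile normalization and to -0.016 and -0.17 after median scaling. The mean log2 signals of its groups ran from 5.06 (control 48 h) to 4.66 (control 24 h), and the arrays of all neighbours in this order overlapped.

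The difference between the responses to feeding and to 48 h of volatiles was 0.35 for NAC014 (SE 0.37, limma adjusted p = 0.59), and that between its responses at 48 h and 24 h was -0.57 (SE 0.41, limma adjusted p = 0.72). Its 48 h controls exceeded the 24 h controls by 0.40 (SE 0.29, limma adjusted p = 0.82), and those groups did not overlap, as for 17.8% of all probe sets.

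Few genes known to lie downstream of NAC proteins could be read, because the annotation names a probe set for only 3 of 23 listed targets. A listed target with a probe set named by the study alone, VSP1, is given after them and is not in their counts or median. BSMT1, the methyltransferase that makes methyl salicylate and methyl benzoate, had signals from 415 to 782 on the fed arrays, against 5.67 to 8.06 on the healthy arrays. It rose by 6.42 on the log2 scale (SE 0.72, limma adjusted p = 3e-05) and was the 1 of these 3 called with feeding. Healthy signals this low are not shown to be above background, so the size of that change is uncertain. After 48 h of volatiles its signals ran from 0.625 to 13.1, against 0.417 to 1.93 in the controls. Those groups overlapped, and no fold is given because 1 volatile and 2 control arrays were below 1 and set to 1. UPOX (AT2G21640), induced in mitochondrial stress, had a log2 fold change of 0.80 with feeding (SE 0.26, limma adjusted p = 0.032), under the 2-fold limit, and AT5G09570, another gene of mitochondrial stress, one of 0.15 (SE 0.34, limma adjusted p = 0.81). After 48 h of volatiles AT5G09570 had signals from 35.9 to 64.2, against 15.1 to 31.8 in the controls, with a log2 fold change of 1.10 (SE 0.34, limma adjusted p = 0.17). Limma called 0 of the 3 targets at 48 h and 0 at 24 h. The median log2 change of the 3 targets was 0.80 with feeding, 1.10 at 48 h and -0.38 at 24 h, beside 0.14, 0.07 and 0.31 over all probe sets in the same order. Each median is the change of 1 uncalled gene, UPOX with feeding and at 24 h and AT5G09570 at 48 h. BSMT1 entered them with arrays set to 1 at both times. A shift of the targets cannot be read from them.

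VSP1, a jasmonate-responsive storage protein that the study names and that was also in the target list, changed on a similar scale. Its signals ran from 2861 to 2981 in fed leaves and from 24.7 to 38.2 in healthy leaves, a log2 fold change of 6.49 (SE 0.46, limma adjusted p = 9.7e-07). After 48 h of volatiles they ran from 304.6 to 818.6, against 100.9 to 394.9 in the controls (log2 fold change 1.37, SE 0.46, limma adjusted p = 0.21). The suffix of its probe set name (_s_at) marks probes shared by related transcripts, and the study chose VSP1 too for its rise at 48 h and with feeding on these arrays. Of 11 listed regulators of NAC genes only EIN3, a transcription factor of the ethylene pathway, had a probe set in the annotation. Its log2 fold change was 0.88 with feeding (SE 0.25, limma adjusted p = 0.020), under the 2-fold limit. At 48 h it was -0.24 (SE 0.25, limma adjusted p = 0.77).

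PYK10, a beta-glucosidase known best from roots, rose with feeding too. Its signals ran from 512.9 to 1054 in fed leaves and from 71.7 to 115.8 in healthy leaves, a log2 fold change of 3.18 (SE 0.31, limma adjusted p = 9e-06). In the volatile experiment they ran from 870.3 to 1490.5 on the volatile arrays and from 697.2 to 1365 on the control arrays of both times. PYK10 was the 1 root marker of 4 with a probe set in the annotation, and its part in the values of the NAM-like protein was not tested. FAMA, the guard cell regulator, had a log2 fold change of -0.17 with feeding (SE 0.21, limma adjusted p = 0.61).

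The probe sets whose responses came closest to those of the NAM-like protein were all called up with feeding. Likeness was the distance over the 3 log2 fold changes (24 h, 48 h and feeding), among 7067 probe sets with 1 gene and a mean log2 signal of at least 4.61 in 1 group, and this measure was set after the values of the members had been seen. The 10 nearest had log2 fold changes with feeding between 5.95 and 7.09, at 48 h between 0.06 and 1.12 and at 24 h between -0.01 and 0.89. The measure uses the feeding response itself, so these changes are a description. The nearest was AT1G54020 at a distance of 0.79, with 6.82 for feeding, 1.12 at 48 h and 0.07 at 24 h. UGT76E12, of the UDP-glycosyltransferase family, followed at 0.85, with 7.09, 0.53 and 0.58 in the same order. Among the 10 were also JRG21, a jasmonate-regulated gene (6.86, 0.27 and 0.41), LTI30, a dehydrin of cold and drought (6.19, 0.46 and 0.19), and AT5G38710, which the study names a proline oxidase (6.56, 0.52 and 0.10). The study took AT5G38710, like the NAM-like protein, for its strong rise with feeding on these arrays, so their likeness is not independent of that choice. Limma called 0 of the 10 at 48 h and 0 at 24 h. For NAC014 the nearest profiles were those of EXGT-A3, at a distance of 0.03, and AZG1, at 0.05, with no change called in any of the 3 comparisons.

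**Figure D3:**
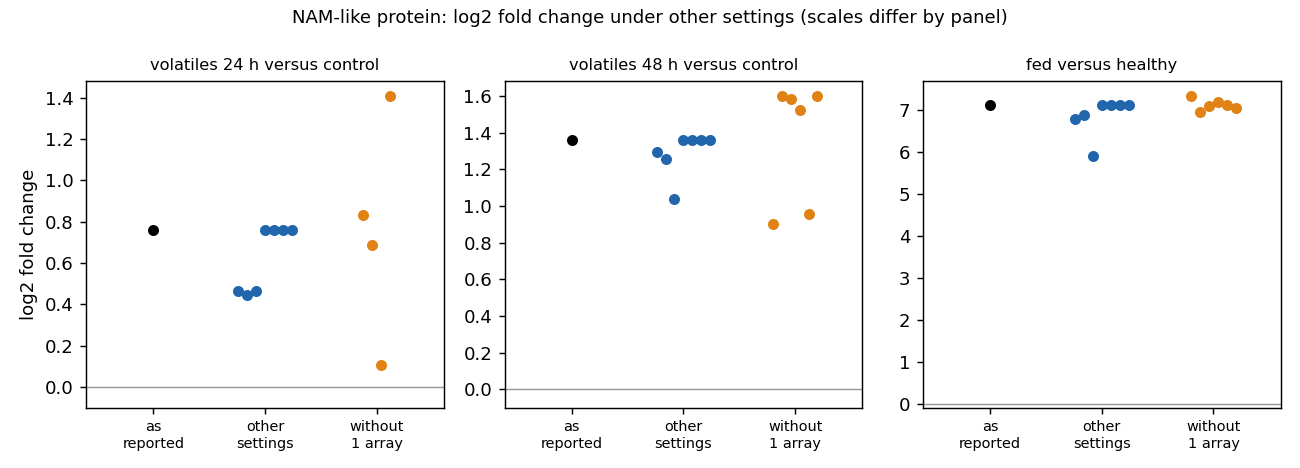
Log2 fold change of the NAM-like protein as reported (black), under 7 other settings (blue) and without 1 array each (orange), for 24 h of volatiles, 48 h of volatiles and feeding; the vertical scales differ by panel. With feeding the values stay between 5.91 and 7.33, and at 24 h they run from 0.11 to 1.41.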

How the data were processed

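Per the labels, RNA of 16 samples with the tissue label leaves was hybridized to Affymetrix ATH1 arrays, 1 sample per array. The deposited intensity values are signals that the authors computed and scaled with MAS5. The MAS5 scaling target is not given in the sources used here, nor is it stated if the GeneSpring normalization of the methods was applied to them. Signals of 1 or less made up 9.62% to 13.3% per array. Signals were floored at 1 before taking log2. The 64 control probe sets among 22810 did not enter the fit. In R 4.3.3, limma 3.58.1 was used with 1 coefficient per group (6 groups) and moderated variances that follow a trend with signal. SAM, named in the methods, served as an alternative because 2 arrays against 2 allow only 6 splits. These form mirror pairs with the same absolute statistic, so fewer are distinct. It was coded here with the median standard error as its added constant and without an estimate of the share of unchanged probe sets. Its calls can therefore differ from those of the package that the study used. The fits were tested on simulated data. Figures used matplotlib 3.10.9 (Python 3.11.15).

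The members, gene lists and the rule for named genes (both members, called targets and regulators, VSP1, and members of high signal or large change) were chosen with earlier results of these data known. Other lists held 54 NAC genes in 5 groups by role, of which 0 had a probe set in the annotation, so that they gave no value. Likewise the markers of trichome, phloem, xylem, flower and dividing cells matched no probe set in the annotation. UPOX, AT5G09570, EIN3, the markers RCA, LHCB4.1, PYK10 and FAMA, and the nearest profiles were named outside that rule, after their values were seen. Alternatives were quantile normalization, median scaling, log2 of the signal plus 16, a filter to the brightest 60%, no variance trend, separate fits using just the arrays compared, a block for replicate number, SAM, dropping the fold threshold, taking 2-fold changes untested, and leaving out each array. Gene names came from the platform annotation and the RefSeq table of TAIR10.1, used for names only.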

Additional observations from a re-analysis of the deposited data

Results flagged for a closer look

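The log2 fold change of the NAM-like protein with feeding exceeded that after 48 h of volatiles by 5.77 (SE 0.62, limma adjusted p = 9.4e-05). The study picked this gene for its rise with feeding on these same arrays, so the difference is not independent of that choice. Its signal was higher in 3 of 3 fed arrays than in any healthy array. The same held for 3 of 3 volatile arrays of 48 h against any control array of that time. Of all probe sets 27.1% and 8.82% were so separated in the same direction. No group held more than 3 arrays, so single arrays were not tested for standing apart.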

How the results depend on the processing

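Limma called the NAM-like protein with feeding, and in the difference between feeding and 48 h of volatiles, under every alternative that gave a test, and SAM called it with feeding. Its log2 fold change with feeding lay between 5.91 (log2 of the signal plus 16) and 7.13 under the 7 other settings and between 6.96 and 7.33 without 1 array, and its difference from the 48 h response between 4.88 and 5.77 and between 5.53 and 6.23. At 48 h its adjusted p lay between 0.051 (upper 60% of probe sets) and 0.54 (fit on the arrays of the comparison alone). The number of NAC probe sets called was 1 in place of 0 at 48 h, and 1 in place of 0 between the controls, when a 2-fold change was taken without a test. Without 1 array, the number stayed at 0 or 1 as reported, with 0 the lowest and 1 the highest. NAC014 reversed at 24 h to -0.031 (quantile normalization) and -0.016 (median scaling), and with feeding to -0.15 and -0.17. Without 1 array its change with feeding ran from -0.035 (second healthy array left out) to 0.16. The difference between 48 h and 24 h for the NAM-like protein ran from -0.048, reversed, without the second volatile array of 24 h to 1.25 without the first. Arrays with the same replicate number had correlations of their deviations between -0.04 and 0.09. With so few arrays a group, these values cannot show whether the samples were paired. With the replicate block the NAM-like protein kept 7.13 with feeding (adjusted p = 6.8e-06), and the calls over all probe sets were 94 in place of 174 at 48 h and 4327 in place of 4378 with feeding; 4 of 6 and 6 of 6 arrays correlated best with their own number, a hint from the data and not from the design. Calls over all probe sets at 48 h ranged from 1 (SAM) and 7 (fit on the arrays of the comparison alone) to 334 (median scaling) among tested settings, without 1 array from 57 (control replicate 3 left out) to 416 (control replicate 1), with 77 without control replicate 2, and 75 and 112 without volatile replicates 1 and 2, and were 1453 at 2-fold without a test. At 24 h they ranged from 0 to 18 among tested settings and from 15 to 23 without 1 array, in place of 4, and with feeding from 2723 (log2 of the signal plus 16) to 6704 (no fold threshold). The cause of these shifts was not tested. With 3 arrays a group, the 95% interval of the NAM-like protein at 48 h ran from 0.40 to 2.32. That interval is not adjusted for the number of probe sets, and the change did not pass the test (limma adjusted p = 0.19).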
